A study of Homo sapiens with 10 samples.

Results

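FKBP8 and the other FKBP immunophilins were followed in MRC5 cells, a human lung fibroblast line, that had been given medium conditioned by A549 cells, a human lung adenocarcinoma line with alveolar epithelial features. The list named 10 FKBP genes, and 9 of them had a row among the 14054 genes of the count table: FKBP8, FKBP1A, FKBP2, FKBP3, FKBP7, FKBP9, FKBP10, FKBP11 and FKBP14. FKBP5 was not analysed here. The family was chosen from this same comparison, because FKBP8 stood among the genes with the smallest p-values. The members' differences between media are therefore given as a description, and nothing is read from test results on them.

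Of the 10 libraries, 5 came from MRC5 cells given medium of A549 cells kept without stretch (static medium) and 5 from MRC5 cells given medium of A549 cells that had been stretched (stretch medium). All libraries come from 1 fibroblast line, every MRC5 culture received A549 medium, and no genotype or drug is named. The labels give 2 exposure times, 24 hours in the sample descriptions and 6 hours in the series design. The labels do not say whether each library had a culture of its own, and p-values here reflect library-to-library spread that may be technical only.

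FKBP proteins are peptidyl-prolyl isomerases, enzymes that turn the bond before proline in a protein chain, and many bind the drugs FK506 and rapamycin. They are spread over the compartments of the cell: FKBP1A works in the cytosol, FKBP3 in the nucleus, FKBP8 is anchored by its tail in the outer mitochondrial membrane, and FKBP2, FKBP7, FKBP9, FKBP10, FKBP11 and FKBP14 are made into the endoplasmic reticulum (ER). In fibroblasts the ER group is known for its part in the folding of secreted proteins, procollagen among them. FKBP8 is known for holding BCL2 and BCL2L1 at mitochondria and for binding LC3 proteins as a receptor of mitophagy, the removal of mitochondria by autophagy.

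Libraries held 4231653 to 8455073 counts, with no difference in mean between media beyond the spread (static 6675921 ± 1494760, stretch 5948227 ± 1544115, SD, n = 5 each; p = 0.444 in an exact two-sided permutation test). All 11 fibroblast markers examined were tested, and their summed level was 14601 to 16562 CPM (counts relative to the library total as adjusted by TMM) in static and 12679.8 to 16594 CPM in stretch libraries. Among 13 epithelial and A549 markers, 9 had a row, with summed levels of 334 to 438 CPM in static and 360.3 to 488 CPM in stretch libraries. Of the 8 epithelial and A549 markers tested, 6 lay above 0 and 2 below (median 0.10 on the log2 scale), and of the 11 fibroblast markers 7 lay above and 4 below (median 0.094). The epithelial keratin gene KRT18 averaged 11.2 CPM in static and 14.6 CPM in stretch libraries (log2 fold change 0.40, unadjusted p under 0.05, adjusted p = 0.276 in edgeR), and the fibroblast marker VIM averaged 4756 and 3656 CPM. AKR1C1, a reductase gene abundant in A549 cells, averaged 338 and 369.5 CPM, so it made up most of the summed epithelial and A549 level. No other marker of that list averaged above 14.6 CPM. The epithelial adhesion gene EPCAM averaged 2.81 and 2.8 CPM, and CDH1 had 0 counts in 5 libraries. Summed levels of smooth muscle, endothelial and leukocyte markers overlapped between media. The part of these markers in the results below was not tested.

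FKBP8 was lower with stretch medium. Its level in static libraries 1, 3, 5, 7 and 9 (numbers as in the sample titles) was 22.6, 29.1, 32.7, 25.8 and 27.8 CPM, and in stretch libraries 2, 4, 6, 8 and 10 it was 13.4, 13.5, 20.4, 14.0 and 14.9 CPM. Every stretch library lay under every static library, and stretch 6 lay nearest to them. The means were 27.6 ± 3.76 and 15.2 ± 2.95 CPM (SD, n = 5 each), which gave a fold of 0.552 and a log2 fold change of -0.86 with a standard error of 0.16. These levels rest on 103 to 247 counts in a static and 59 to 148 in a stretch library. At the mean count over both media, counting alone gives a coefficient of variation (CV) of about 8.48%. It is higher than that at the lower stretch counts. The CV seen between libraries was 13.6% in static and 19.4% in stretch medium. Leaving out any 1 library kept the log2 fold change between -0.99 (without stretch 6) and -0.79 (without static 5).

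The gene (ENSG00000105701) lies on the minus strand of chromosome 19, from 18531751 to 18544077 on GRCh38. In GENCODE release 29 it overlaps only the non-coding genes AC005387.1 and AC005387.2 on the other strand, neither of which has a row in the table. Its nearest coding neighbours are ELL, 9624 bases away on the left, and KXD1, 13685 bases away on the right.

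**Figure D1:**
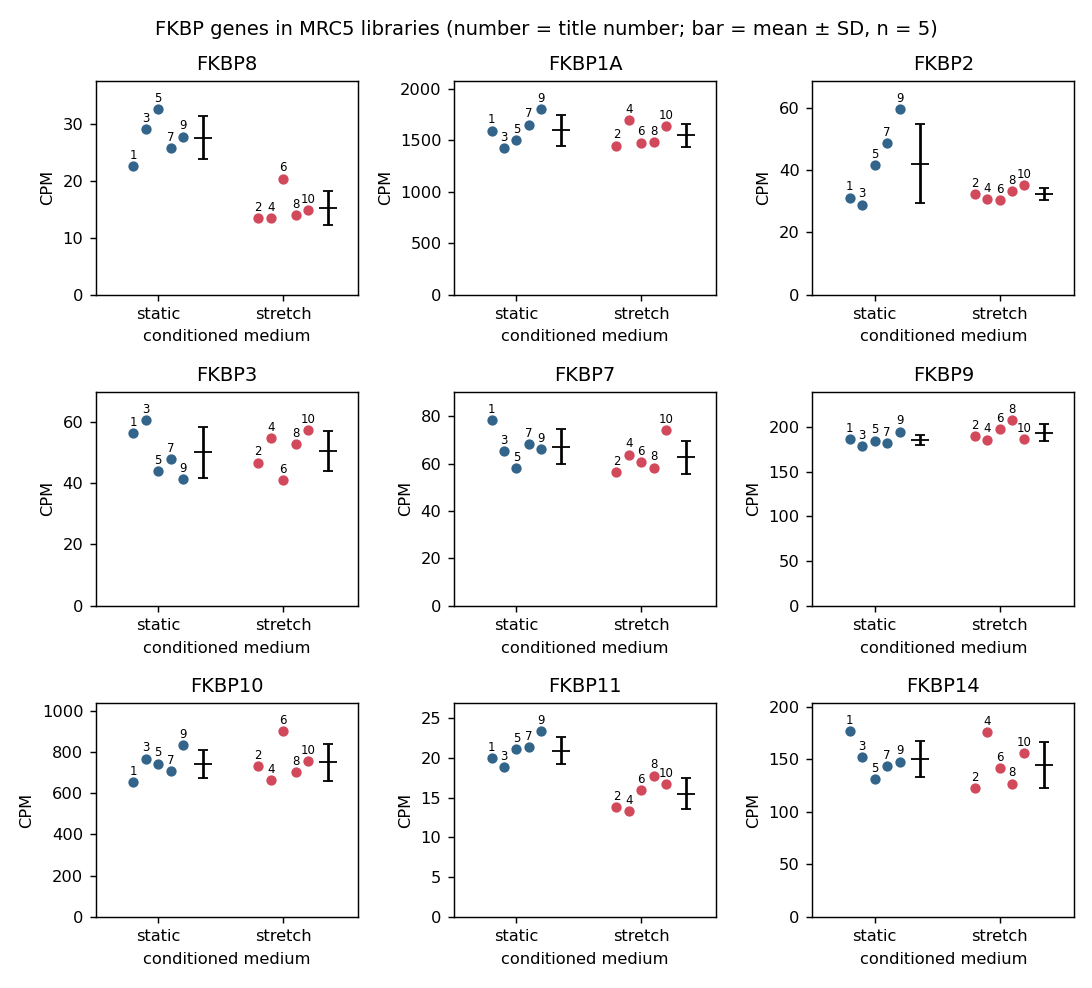
Level of 9 FKBP genes in each of 10 MRC5 libraries, in CPM on axes that start at 0, with title numbers beside the points and bars for mean ± SD (n = 5 per medium). FKBP8 and FKBP11 are the panels in which the 5 stretch libraries all lie under the 5 static ones, and in the FKBP2 panel the static libraries spread from 28.9 to 59.7 CPM.

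FKBP11, an ER membrane member best known from secretory cells, was the other gene whose groups did not overlap. Static libraries 1, 3, 5, 7 and 9 were at 20, 18.9, 21.1, 21.4 and 23.4 CPM, and stretch libraries 2, 4, 6, 8 and 10 at 13.8, 13.3, 16, 17.8 and 16.7 CPM. The highest stretch library, at 17.8 CPM, lay just under the lowest static library, at 18.9 CPM. The means of 20.9 ± 1.68 and 15.5 ± 1.93 CPM (SD, n = 5 each) gave a fold of 0.744 and a log2 fold change of -0.43 with a standard error of 0.14. FKBP11 rests on 61 to 164 counts a library. At its mean count over both media, counting alone gives a CV of about 9.27%, the highest among the members. Non-overlapping groups with the lower values in stretch medium thus occurred in 2 of 9 members, where 1.98% of the 10968 genes tested had them. Since the comparison chose the family, nothing is read from that share.

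FKBP2, a small luminal ER isomerase, differed between media through part of the static libraries. It was at 31.2, 28.9, 41.7, 48.8 and 59.7 CPM in static libraries 1, 3, 5, 7 and 9, and at 32.4, 30.6, 30.4, 33.2 and 35.2 CPM in stretch libraries 2, 4, 6, 8 and 10. All 5 stretch libraries lay within the static range, next to static 1 and 3, while static 5, 7 and 9 were higher than all of them. The CV was 30.3% among static and 6.09% among stretch libraries. The log2 fold change of -0.38 (standard error 0.17, fold 0.768) became -0.22 without static 9 and -0.50 without static 3.

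Promoter sequence from RefSeq (GRCh38.p14) was found for 7 of the 10 listed genes, FKBP1A, FKBP2, FKBP3, FKBP5, FKBP7, FKBP9 and FKBP11, and not for FKBP8, FKBP10 and FKBP14. The bases before the starts of FKBP2 and FKBP11 are shown because these are the ER members with the lower mean in stretch medium by the widest margin, and because genes of the ER stress response are among the lists examined. Capitals mark CCACG or its complement, the part of the ER stress element that ER stress factors contact. The FKBP2 bases (chr11:64240845-64241002, plus strand) end at the gene's annotated start and are outside its exons. The FKBP11 bases (chr12:48925672-48925701, minus strand) are a 30-base window whose CCACG ends 193 bases before the RefSeq start. They lie within the span of the gene in GENCODE, from 48921518 to 48926474.
FKBP2: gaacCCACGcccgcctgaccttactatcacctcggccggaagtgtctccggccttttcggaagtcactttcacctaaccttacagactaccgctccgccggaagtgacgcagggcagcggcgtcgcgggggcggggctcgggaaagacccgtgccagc
FKBP11: gtttggcccgacCCACGttataggacagaa

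CCACG, searched on both strands in the 250 bases before a start, was present at 7 of 13 starts of the listed genes (those of FKBP1A, FKBP2, FKBP5 and FKBP11) and at 33.5% of all 35116 starts. It is a short and common word, so these matches are a description only. The full ER stress element and its variant ER stress element II, both of which contain CCACG, were in 0.074% and 0.0513% of all starts and in none of the 13. The UPR element core TGACGTGG, which holds the complement of CCACG, in 0.612% of all starts, and the amino acid response element TGATGNAA, in 3.14%, were also in none of the 13.

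The remaining ER members kept similar levels in both media. FKBP10, the procollagen chaperone whose loss causes brittle bone disease, averaged 740.4 ± 66.9 CPM in static and 749 ± 90.8 CPM in stretch libraries (SD, n = 5 each), a log2 fold change of 0.017 with a 95% interval of -0.20 to 0.24. FKBP14, which binds type III collagen and is mutated in a form of Ehlers-Danlos syndrome, was at 150.4 ± 16.8 and 145 ± 21.6 CPM, with an interval of -0.30 to 0.20. FKBP9 was the steadiest member, with a CV of 3.36% among static and 4.88% among stretch libraries and means of 186 ± 6.23 and 194 ± 9.46 CPM. FKBP7, a partner of the ER chaperone HSPA5, was at 67.2 ± 7.38 and 62.7 ± 6.94 CPM, with an interval of -0.34 to 0.15. In each of these 4 genes the groups overlapped.

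The cytosolic and nuclear members also overlapped between media. FKBP1A, the receptor through which rapamycin reaches mTOR and a guard on the TGF-beta type I receptor, ranged from 1423 to 1807 CPM in static and from 1449 to 1699 CPM in stretch libraries. The difference on the log2 scale was -0.043 (95% interval -0.24 to 0.16). FKBP3, a nuclear isomerase that binds nucleic acids, was at 50.1 ± 8.24 and 50.5 ± 6.5 CPM, with a log2 fold change of 0.011 and an interval of -0.27 to 0.30. FKBP3 overlaps PRPF39 on the other strand, which also has a row, and the use of strand in counting is not given in the sources used here, so reads of this pair may be shared. FKBP1A has a near-identical retrogene, FKBP1C, and FKBP9 a pseudogene copy, FKBP9P1. These copies held at most 5 and 3 counts in a library, below the level for testing, so few reads were assigned to them.

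**Figure D2:**
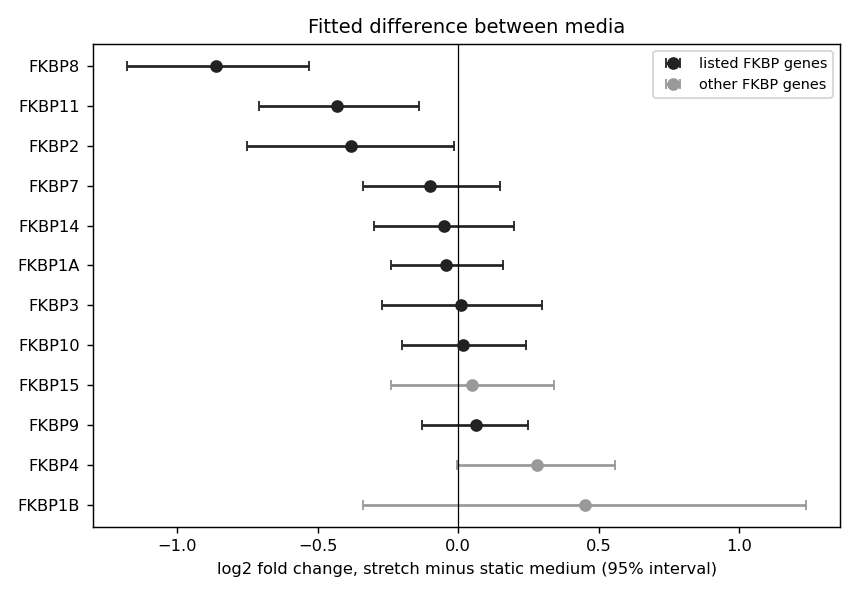
Fitted log2 fold change (stretch minus static medium) with 95% intervals for 9 listed FKBP genes in black and 3 other tested FKBP genes in grey. Among the black points FKBP8 at -0.86 is the farthest from 0, then FKBP11 and FKBP2, and the intervals of the other 6 span 0. Over all genes tested, 16.4% had an unadjusted p under 0.05 in edgeR. Because this comparison chose the family, nothing is read from which intervals span 0.

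Across the 9 members, 6 log2 fold changes were below 0 and 3 above, with a median of -0.051, against 5478 below and 5490 above and a median of 0.00035 over all 10968 genes. No member passed an adjusted p of 0.05 in edgeR's quasi-likelihood test, and neither did any other gene, so the share called was 0%, with 1804 of the 10968 genes (16.4%) at an unadjusted p under 0.05. In DESeq2, 1 of 9 members passed, FKBP8, where 2.86% of all genes with an adjusted p did. Nothing is read from these counts, because the comparison chose the family. The biological CV fitted by edgeR ran from 11.1% for FKBP9 to 19.2% for FKBP2, around a median of 16.7% over all genes.

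Of the other FKBP genes examined, 3 were tested, and their log2 fold changes lay above 0 in the main fit. FKBP4, the HSP90 cochaperone closest in build to FKBP5, was at 187, 213, 211, 199 and 151 CPM in static libraries 1, 3, 5, 7 and 9 and at 187, 192, 275, 236 and 277 CPM in stretch libraries 2, 4, 6, 8 and 10. Stretch 6, 8 and 10 exceeded every static library, and stretch 2 and 4 did not. The log2 fold change was 0.28 ± 0.13 (standard error), with an adjusted p of 0.308 in edgeR. FKBP1B, the calcium channel partner, rests on 3 to 37 counts a library and was at 0.45 (adjusted p = 0.574 in edgeR), with 0.21 without stretch 6, 0.70 without stretch 10 and 0.22 in limma-voom, and FKBP15, an endosomal protein, at 0.051 (0.886). None of the 3 was called, and 0 had an unadjusted p under 0.05. Without stretch 6, FKBP15 was at -0.017. FKBP6 and FKBPL were not analysed here.

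With each group's mean removed, so that the difference between media plays no part, FKBP8 varied with FKBP10 over the 10 libraries. Pearson's r of their log2 CPM was 0.82 and Spearman's rho 0.84, and r was again 0.82 without the 2 libraries farthest from the median of FKBP8. FKBP8 and FKBP10 were both at their highest stretch value in stretch 6 (20.4 and 900.1 CPM) and both at their lowest static value in static 1 (22.6 and 652 CPM). FKBP7 and FKBP14 formed the next pair, at r = 0.79 and rho = 0.83, with 0.78 without the 2 farthest libraries. FKBP8 showed no such relation to FKBP11 (r = 0.24) or FKBP2 (r = 0.05), the other members with lower means in stretch medium. Over all 36 pairs r ran from -0.62 to 0.82 with a median of 0.041 and 19 above 0. These values are given as a description, since each library gives all genes at once and shares its depth and scaling among them.

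**Figure D3:**
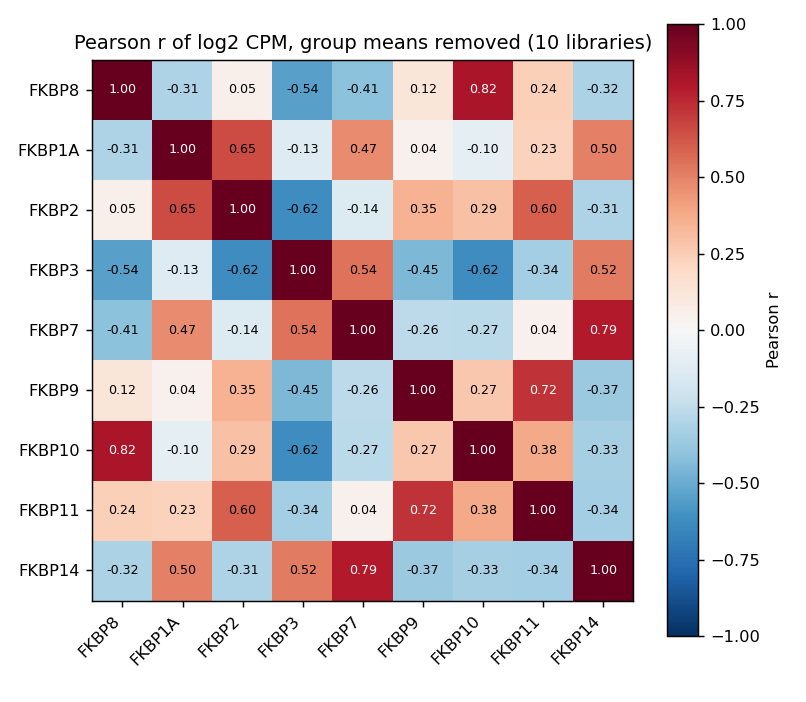
Pearson correlation of log2 CPM between 9 FKBP genes over 10 libraries after each group's mean was subtracted, coloured from -1 to 1. The pairs FKBP8 with FKBP10 (0.82) and FKBP7 with FKBP14 (0.79) have the highest values, and FKBP3 has the lowest, -0.62, with both FKBP2 and FKBP10.

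Ranked in the same way against FKBP8, the 10967 other tested genes had a median r of 0.011, and 5% and 95% of them lay below -0.62 and 0.57. The 5 highest were the docking protein gene DOK4 (r = 0.94, rho = 0.95), the ubiquitin ligase gene TRIM8 (0.92, 0.93), GMPPB, which makes GDP-mannose for glycosylation (0.92, 0.75), WDR55 (0.91, 0.78) and the Fanconi anaemia gene FANCE (0.89, 0.77). The 3 lowest were CYP51A1P1, a pseudogene of the sterol demethylase gene (-0.92, -0.95), the adaptor gene SKAP2 (-0.91, -0.82) and UGGT1, the ER folding sensor of glycoproteins (-0.90, -0.73). Without the 2 libraries farthest from the median of FKBP8, the 8 correlations shrank to between 0.54 (FANCE) and 0.82 (TRIM8) and between -0.76 (CYP51A1P1) and -0.56 (SKAP2). These 8 genes are the ends of a ranking of 10967, and their values have no test. CYP51A1P1 shares sequence with its parent gene and ranged down to 0 counts, so its level is uncertain.

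FKBP8's known partners at mitochondria were read from lists of BCL2 family and mitophagy genes. Of the 14 BCL2 family genes tested, 0 passed an adjusted p of 0.05 in edgeR in either direction, with a median log2 fold change of -0.070. Unadjusted p-values under 0.05 were found for 3, or 21.4% of the list, against 16.4% of all genes. They were the survival factor MCL1 (-0.34 ± 0.11, standard error; adjusted p = 0.161), the p53-induced killer PMAIP1 (-0.37 ± 0.12; 0.164), both lower, and BCL2L1, the survival factor that FKBP8 binds, higher at 0.24 ± 0.10 (0.266). BCL2, the other partner named above, had a log2 fold change of -0.42 at an unadjusted p over 0.05. MCL1 averaged 307 ± 45.7 CPM in static and 242 ± 15.5 CPM in stretch libraries, and BCL2L1 at 307 ± 29.9 and 363 ± 35.3 CPM (SD, n = 5 each).

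Of 20 mitophagy and mitochondrial dynamics genes tested, 0 passed in edgeR, 4 had an unadjusted p under 0.05 (2 higher, 2 lower; 20% against 16.4% of all genes), and the median was -0.016. OPTN, a receptor that links ubiquitin-coated mitochondria to LC3, was at 110.3, 98.2, 114, 139 and 95.3 CPM in static libraries 1, 3, 5, 7 and 9 and at 59.1, 88.5, 56.3, 69.4 and 86.4 CPM in stretch libraries 2, 4, 6, 8 and 10. Its groups did not overlap, with the lower values in stretch medium, which was so for 1.98% of all genes tested. OPTN was the only such gene of the 20. The log2 fold change was -0.63 ± 0.15, with an adjusted p of 0.0903 in edgeR and 0.00973 in DESeq2. The fusion genes MFN1 (-0.31 ± 0.14; adjusted p = 0.280 in edgeR) and MFN2 (0.29 ± 0.13; 0.276) lay on opposite sides of 0. SQSTM1 was not analysed here, and MAP1LC3B had too few counts to be tested.

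Partners of FKBP1A included mTOR complex genes, calcineurin subunits, type I receptors and calcium release channels. Of 20 tested, 0 passed, with a median of 0.0090. Unadjusted p-values under 0.05 were found for 2, or 10% of the list against 16.4% of all genes. RHEB, the small GTPase that switches on mTORC1 and is also known to bind FKBP8, was at 485, 429, 444, 453 and 461 CPM in static libraries 1, 3, 5, 7 and 9 and at 385, 411, 384, 404 and 412 CPM in stretch libraries 2, 4, 6, 8 and 10. The groups did not overlap, yet the difference was small, at -0.19 ± 0.087 (adjusted p = 0.297 in edgeR). Lower stretch values without overlap occurred in 1 of these 20 genes, against 1.98% of all genes. PPP3CC, a calcineurin catalytic subunit, was at -0.53 ± 0.19 (0.184) and TSC2, a brake on RHEB, at 0.23 ± 0.11 (0.305).

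Among HSP90, its cochaperones and the steroid receptors they serve, 25 of 26 were tested and 0 passed, with a median of -0.028. Of 6 with an unadjusted p under 0.05 (24% of those tested against 16.4% of all genes), 3 were higher and 3 lower. The smallest p-values belonged to the adaptor gene TTC4 (0.32 ± 0.11; adjusted p = 0.166 in edgeR), the mineralocorticoid receptor gene NR3C2 (0.51 ± 0.17; 0.166) and the myosin chaperone gene UNC45A (0.35 ± 0.12; 0.178). Glucocorticoid-responsive genes were listed because FKBP5 is itself a glucocorticoid target, and their levels do not give that of FKBP5. Of 14 of these genes tested, 0 passed in edgeR, with 6 above 0, 8 below and a median of -0.13. Unadjusted p-values under 0.05 were found for 2, both lower, or 14.3% against 16.4% of all genes. TXNIP, a thioredoxin inhibitor, did not overlap between media, with 148 to 203 CPM in static and 93.9 to 137 CPM in stretch libraries. Its log2 fold change was -0.55 ± 0.13 (adjusted p = 0.0995 by edgeR, 0.0111 by DESeq2). Lower stretch values without overlap occurred in 1 of these 14 genes, against 1.98% of all genes. MT1X, a metallothionein, was at -0.44 ± 0.18 (adjusted p = 0.246) and DUSP1, a phosphatase of MAP kinases, at 0.24 ± 0.15 (0.452).

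For the ER members, the list of ER chaperones and unfolded protein response genes had a median of -0.12, with 12 of 18 tested below 0 and 0 past the threshold in edgeR. Unadjusted p-values under 0.05 were found for 5, or 27.8% against 16.4% of all genes, and 4 of these were lower. XBP1, a transcription factor that answers ER stress, averaged 162 ± 13.5 CPM in static and 119 ± 15.8 CPM in stretch libraries (SD, n = 5 each), or -0.45 ± 0.11, with an adjusted p of 0.109 in edgeR and 0.0157 in DESeq2. EDEM1, which draws misfolded glycoproteins toward degradation, was at -0.56 ± 0.16 (0.129 in edgeR, 0.0410 in DESeq2). SEL1L, a subunit of the ER degradation complex, went the other way at 0.33 ± 0.088, with every stretch library (265 to 291 CPM) above every static one (207 to 227 CPM) and adjusted p-values of 0.119 and 0.00812. Stretch values above all static ones were seen in 1.74% of the genes tested.

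Procollagen enzymes and chaperones, which work beside FKBP10 and FKBP14, showed 0 of 17 past the threshold and 0 of 17 at an unadjusted p under 0.05. Their median was 0.061, with 11 above 0 and values from -0.37 for COLGALT2, a collagen galactosyltransferase (adjusted p = 0.432), to 0.34 for the prolyl hydroxylase subunit P4HA3 (0.339). TMEM38B, an ER cation channel needed for collagen export, was at -0.24 ± 0.13 (0.383). Of 8 collagen chains 0 passed and 1, COL1A1, had an unadjusted p under 0.05, or 12.5% against 16.4% of all genes. The smallest p-values belonged to COL1A1, at 0.22 ± 0.10 (0.273), COL5A2, at -0.20 ± 0.11 (0.383), and COL3A1, at -0.15 ± 0.13 (0.585).

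The other prolyl isomerase families, cyclophilins and parvulins, had 15 of 20 genes tested, 0 past the threshold in edgeR and a median of -0.11. Unadjusted p-values under 0.05 were found for 3 (2 higher, 1 lower), or 20% against 16.4% of all genes. PPIL1, a cyclophilin of the spliceosome, was higher in every stretch library (20.1 to 25.1 CPM) than in every static one (15.1 to 18.9 CPM). Its log2 fold change was 0.46 ± 0.13, with an adjusted p of 0.130 in edgeR and 0.0439 in DESeq2. Higher stretch values without overlap occurred in 1 of these 15 genes, against 1.74% of all genes. PPIF, the mitochondrial cyclophilin of the permeability pore, was at 0.39 ± 0.16 (0.261 in edgeR), and PIN4, a parvulin, at -0.76 ± 0.32 (0.258) on levels of 3.58 ± 0.819 and 2.06 ± 1 CPM. PPIB, the ER cyclophilin of procollagen, stands in both this list and the procollagen list.

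**Figure D4:**
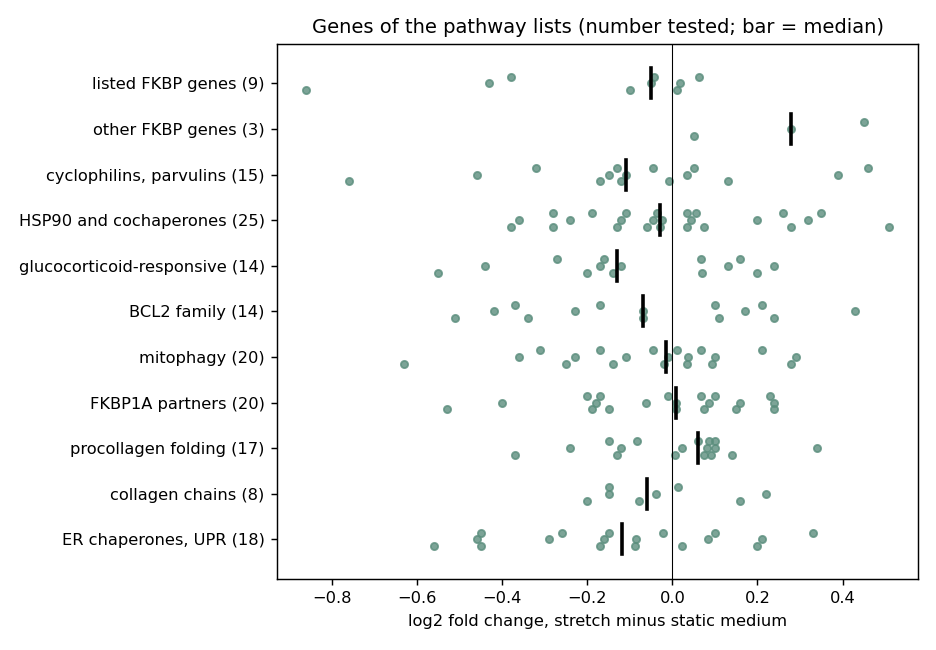
Fitted log2 fold change (stretch minus static medium) of each tested gene in the pathway lists, with the number tested in brackets and a bar at the median. List medians lie between -0.13 and 0.28, and FKBP8 at -0.86 is the lowest point of all lists.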

How the data were processed

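RNA of 10 MRC5 libraries (5 per medium) was extracted with Trizol and made into libraries with an Ion AmpliSeq transcriptome kit, which amplifies short targets, per the labels' protocols. The submitters' processing notes name fastp 0.20.1, Salmon 1.9 and hg38/GRCh38. Which step each served, the annotation and the use of strand are not stated there. The authors deposited a table of whole-number counts by Ensembl identifier, with no gene above 0 in fewer than 5 libraries. Reads of amplified targets are not independent molecules and do not scale with gene length, so levels of different genes are not ranked against each other, summed marker levels are read only between libraries, and precision from counting covers counting error only.

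Columns were matched by the number in the sample titles, symbols were found for 13860 of 14054 identifiers, and positions are from GENCODE release 29. Fits used edgeR 4.0.16 under R 4.3.3. After filterByExpr (minimum count 10, minimum total 15) and TMM scaling, its quasi-likelihood test compared stretch with static libraries. P-values were adjusted by Benjamini-Hochberg over 10968 genes, with a threshold of 0.05. The fit was tested on simulated data. Log2 CPM used a prior count of 2. The members and lists were chosen with earlier results of these data known. Named genes were all members, other FKBP genes, the 3 smallest p-values of each list, and the 5 highest and 3 lowest correlations with FKBP8. Alternatives were other scalings and filters, DESeq2 1.42.0, limma-voom 3.58.1, the title number as covariate or in consecutive blocks, and each library left out. Genes withheld for evaluation are not reported here.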

Additional observations from a re-analysis of the deposited data

Results flagged for a closer look

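Among 49 genes examined in 2 groups of 5 libraries each, 6 values of single genes stood apart from the rest of their group. The gap to the nearest library was over 0.71 of the group's range. Chance flags about 1 in 20 groups. FKBP8 in stretch 6 was at 20.4 CPM, where the other stretch libraries were at 13.4 to 14.9 CPM, and its log2 fold change was -0.99 without that library. DOK4, ranked by its likeness to FKBP8, was at 54.9 CPM in stretch 6 against 33.3 to 38.6 CPM, and its r with FKBP8 was 0.86 without it. CYP51A1P1 had 0 CPM in stretch 6, where the other stretch libraries were at 66.7 CPM or more. DOK4 and CYP51A1P1 were picked by their correlation with FKBP8, so these flags in stretch 6 are not separate events. BCL2L1 was at 359.9 CPM in static 5 against at most 302 CPM in the other static libraries. TSC2 was at 94.3 CPM in static 3 against at most 76.3 CPM. PPIL1 was at 20.1 CPM in stretch 10 against at least 24.4 CPM. The part of stretch 6 in the correlations with FKBP8 beyond these values was not tested.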

How the results depend on the processing

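The log2 fold change of FKBP8 stayed between -0.87 and -0.85 under 9 other scalings, filters, tests and covariates. Over 171 values of the 9 members under these settings or with a library left out, none moved by more than the spread between libraries, and 13 changed sign, all in FKBP1A, FKBP3, FKBP10 and FKBP14, whose values lie near 0. The number of genes called was 0 in edgeR, 269 in DESeq2, 1 in limma-voom, and 0 to 39 with a library left out (39 without stretch 4, 2 without stretch 6, 1 without stretch 10). FKBP8 was among the genes called in DESeq2 and in edgeR without stretch 4 or stretch 6, from which nothing is read, because this comparison chose the family. Among genes with an adjusted p, DESeq2 called 1 of 14 cyclophilins and parvulins (PPIL1) and 1 of 14 glucocorticoid-responsive genes (TXNIP). It also called 1 of 19 mitophagy genes (OPTN) and 3 of 18 ER genes (XBP1, EDEM1, SEL1L). Over all genes with an adjusted p it called 2.86%, and edgeR called 0 of each list. With a library left out, log2 fold changes ran from -0.017 (without stretch 6) to 0.13 for FKBP15, from -0.014 (without stretch 6) to 0.23 for FANCE and from -0.20 to 0.034 (without stretch 6) for SKAP2, so their directions turned. They also turned and for CYP51A1P1 at -0.11 with consecutive numbers as a block, at -1.44 in limma-voom, and at -0.21 to 0.70 with a library left out; the cause was not tested. The groups share no title number, so the block of consecutive numbers is no stated pairing, and with it 0 genes were called. Among the 9 members, small counts limit FKBP8 and FKBP11 most.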

Other observations

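Of the 9 members, 3 have a coding gene that starts close by on the opposite strand and points away, a choice made by position after the data were examined. FKBP10 starts 76 bases from P3H4, a gene of the collagen prolyl hydroxylation complex, with a mean of 72.5 ± 5.34 CPM in static and 77.2 ± 6.87 CPM in stretch libraries (SD, n = 5 each), or 0.091 ± 0.11 (adjusted p = 0.699 in edgeR). With group means removed, r between FKBP10 and P3H4 over 10 libraries was 0.47 (rho 0.49), and 0.10 without the 2 libraries farthest from the median of FKBP10. FKBP3 starts 621 bases from FANCM, a DNA repair helicase gene (r = -0.60, rho = -0.52, and -0.72 without the 2 farthest libraries). FKBP14 starts 720 bases from PLEKHA8, a lipid transfer gene (r = -0.15, rho = -0.14, and -0.22). The log2 fold changes of FANCM and PLEKHA8 were 0.081 ± 0.21 and 0.17 ± 0.15 (adjusted p = 0.884 and 0.616 in edgeR).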
